A study of Brassica rapa subsp. pekinensis with 6 samples.

Results

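Chlorophyll breakdown enzymes dismantle the green pigment of leaves. The genes described here are those of the authors' deposited table whose best Swiss-Prot protein hit is chlorophyll(ide) b reductase NYC1, pheophytinase, pheophorbide a oxygenase, red chlorophyll catabolite reductase or chlorophyllase. They number 9 of 13225 listed genes and fall on 5 distinct protein hits. STAY-GREEN genes are not among them. Messenger RNA was sequenced from 3 libraries of autotetraploid leaves, in which the genome of a line is present in more copies, and 3 libraries of doubled haploid leaves, made by doubling a haploid genome. All plants descended from the Chinese cabbage (Brassica rapa subsp. pekinensis) doubled haploid line 'FT' and were raised alike, so the autotetraploids represent a single genetic background. Mature main-stem leaves from beneath the lowest branch were taken at bolting, and no age in days was given. The labels describe the libraries as biological replicates without saying how many plants each one holds.

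Chlorophyll is taken apart in the chloroplast along a fixed series of steps, best known from Arabidopsis. NYC1 starts the conversion of chlorophyll b to chlorophyll a, and STAY-GREEN proteins remove the magnesium. Pheophytinase (PPH) cuts off the phytol tail, pheophorbide a oxygenase (PAO) opens the ring, and red chlorophyll catabolite reductase (RCCR) reduces the red product of PAO to a colourless one. Chlorophyllase (CLH) also removes phytol, but in Arabidopsis senescing leaves degrade chlorophyll without it.

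The table gives 1 mean of size-factor-normalised read counts per gene and group, so most values below have no spread between libraries beside them. Read totals of the libraries are not analysed here. Size factors, inferred from the smallest values, spanned 0.926 to 1.01 in autotetraploid and 0.917 to 1.12 in doubled haploid libraries. The table lists only genes with an authors' adjusted p under 0.05, which are 37.8% of the 34980 genes tested. That all 9 genes passed is therefore a condition of being listed and not a result. Each log2 fold change below is autotetraploid over doubled haploid. Its standard error was worked back from the authors' p, taking p as that of a normal deviate, and is approximate. Gene lengths were not used, so levels are compared between groups and not between genes.

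Genes with a strong hit (E-value under 1e-100) to NYC1, PPH, PAO or RCCR were lower in autotetraploid leaves. The chlorophyllase gene and 3 genes with only a weak pheophytinase hit were higher. Of the 9 genes, 5 were lower and 4 higher, against 18.9% of all tested genes called lower and 18.9% called higher. Among listed genes alone, 50.0% were lower, so the count by itself does not set these genes apart. The direction followed the strength of the protein hit for all but CLH1. Of the 6 genes whose hit had an E-value under 1e-100, 5 were lower, and of the 3 with a weaker hit none was. The median log2 fold change of those 6 was -0.61, against 0.19 for all listed genes above 0 in both groups. This limit on the E-value was set after the values were seen, so the contrast between strong and weak hits is descriptive only.

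**Figure D1:**
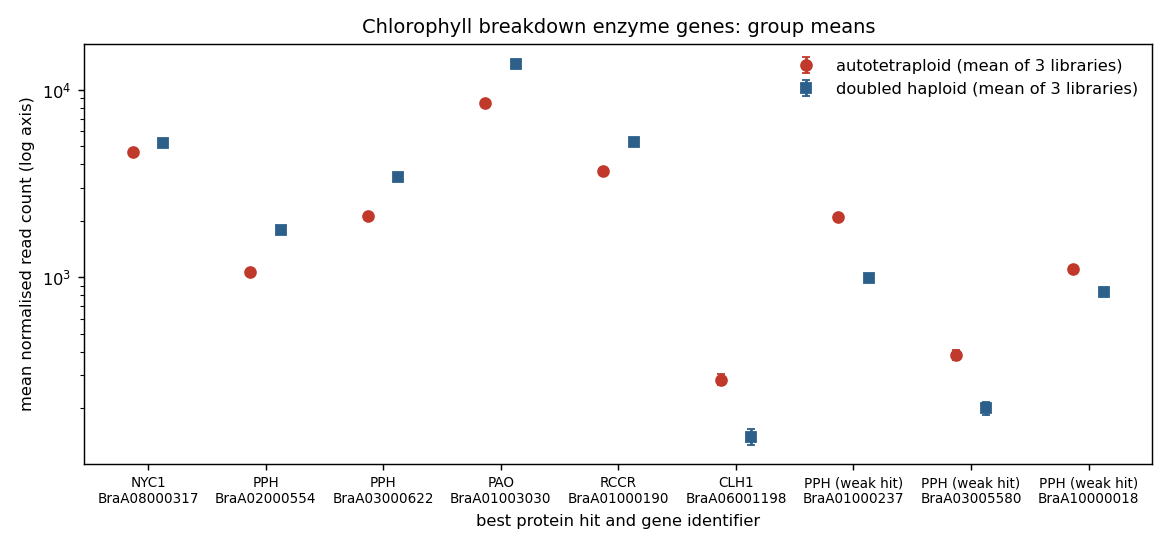
Mean normalised read count (log axis) of the 9 genes in autotetraploid (red circles, left) and doubled haploid (blue squares, right) leaves, each the authors' mean of 3 libraries; bars are approximate 95% counting intervals and do not cover the spread between libraries. The red circle lies below the blue square for NYC1, both strong PPH hits, PAO and RCCR, and above it for CLH1 and the 3 weak PPH hits.

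NYC1, the reductase for the first step from chlorophyll b, changed least. Its gene (evm.TU.BraA08000317) had a mean of 4624 normalised reads in autotetraploids, against 5221 in doubled haploids. The log2 fold change was -0.18 with an implied standard error of 0.06, and the authors' deposited table gave an adjusted p of 0.0189. This was the weakest call of the 9 genes, and the only one that an adjusted p limit of 0.001 would remove. Under that limit 4 of the 9 genes were lower, against 4502 of the 13225 listed genes and 12.9% of all tested genes. Only the count over listed genes is a like comparison, since all 9 genes were listed. Of the 959 listed genes with a mean within 2-fold of its own, 1.77% had a smaller change. Genes that failed the authors' test are missing from this share, so it does not rank NYC1 among all genes of like mean.

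Pheophytinase, which removes the phytol tail from magnesium-free chlorophyll, had 2 genes whose hit to the Arabidopsis protein had an E-value listed as 0. The first (evm.TU.BraA02000554) had a mean of 1065 normalised reads in autotetraploids, against 1776 in doubled haploids, and an adjusted p of 1.46e-20 in the authors' deposited table. The second (evm.TU.BraA03000622) had means of 2109 in autotetraploids and 3437 in doubled haploids, with an adjusted p of 1.57e-23 in the authors' deposited table. Both copies thus fell: their log2 fold changes were -0.74 and -0.70, with implied standard errors of 0.08 and 0.07. Summed over both, autotetraploid leaves had 3174 normalised reads, 60.9% of the 5213 in doubled haploids. Whether the copies share reads was not examined.

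PAO opens the ring and so ends the green colour of the pigment. Its gene (evm.TU.BraA01003030) fell to a mean of 8469 normalised reads in autotetraploids, against 13727 in doubled haploids. The log2 fold change was -0.70 with an implied standard error of 0.06, and the adjusted p in the authors' deposited table was 7.1e-29. RCCR acts directly on the product of PAO. Its gene (evm.TU.BraA01000190) had a mean of 3668 in autotetraploid leaves and 5268 in doubled haploids, a log2 fold change of -0.52 with an implied standard error of 0.06, and an adjusted p of 8.05e-15 in the authors' deposited table.

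The falls of both strong PPH copies, PAO and RCCR had overlapping implied 95% intervals, running from -0.89 to -0.59 and from -0.84 to -0.57 for the PPH copies, from -0.82 to -0.58 for PAO and from -0.65 to -0.40 for RCCR. The interval of NYC1, from -0.30 to -0.05, lay above all of these. The differences between genes were not tested, since the genes were measured in the same libraries. None of the falls reached 2-fold, against 23.0% of listed genes that were at least 2-fold lower. In bulk leaf RNA, fewer cells with a transcript and less of it per cell cannot be told apart.

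**Figure D2:**
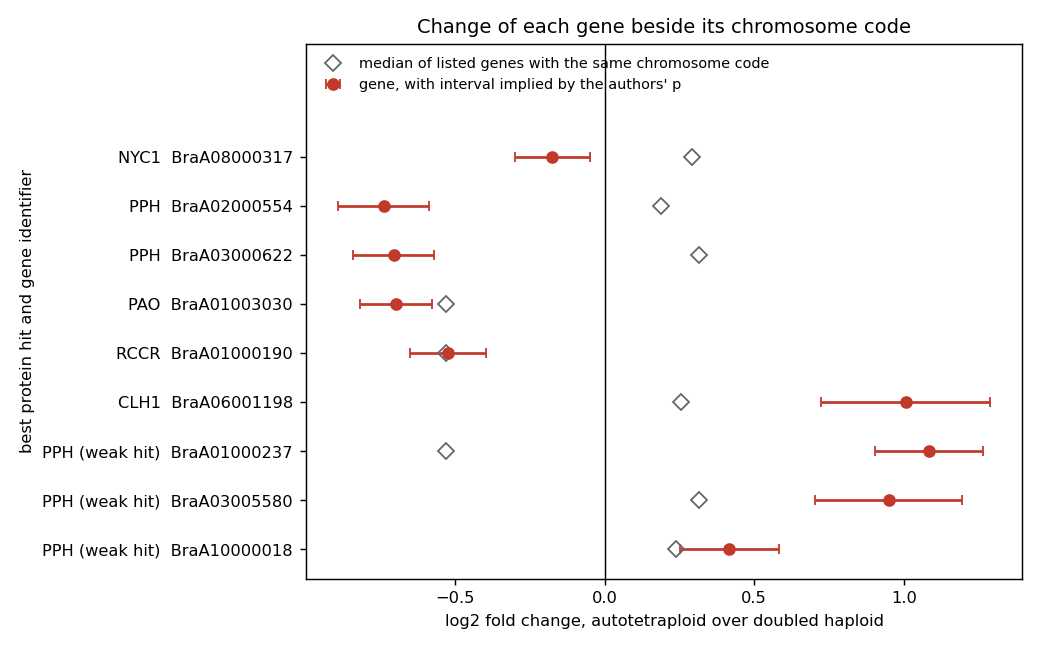
Log2 fold change (autotetraploid over doubled haploid) of each gene, with the 95% interval implied by the authors' p (red), beside the median of all listed genes with the same chromosome code (open diamonds). RCCR at -0.52 lies on the A01 median of -0.53, while both strong PPH hits, at -0.74 and -0.70, lie far below the medians of A02 and A03, which are above 0.

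Both PAO and RCCR carry the chromosome code A01 in their identifiers, and listed A01 genes were lower far more often than those of other codes. Of 1284 listed A01 genes, 926 (72.1%) were lower, against 43.2% to 49.9% for the other codes. The median log2 fold change of listed A01 genes was -0.53, against 0.18 to 0.35 for the other codes. Relative to its code, RCCR stood at 0.01 and PAO at -0.17. With only genes of a mean of at least 1000, where the A01 median was -0.35, these values were -0.17 for RCCR and -0.34 for PAO. The part of the A01 shift in the falls of PAO and RCCR was not tested. The strong PPH copies and NYC1 carry other codes (A02, A03 and A08), whose listed genes had medians of 0.19, 0.31 and 0.29. Relative to these, the PPH copies stood at -0.93 and -1.02, and NYC1 at -0.47. All these medians cover only genes that passed the authors' test, so changes near 0 are missing from them. They do not give the shift of all genes of a code. Without A01 genes, 3 of 6 genes were lower.

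Chlorophyllase moved the other way. A single gene had CLH1 as best hit (evm.TU.BraA06001198, E-value listed as 0), with a mean of 284 normalised reads in autotetraploids, against 141 in doubled haploids. Its log2 fold change was 1.01 with an implied standard error of 0.14, and the adjusted p in the authors' deposited table was 2.01e-11. At 2.01-fold higher, it was one of 2 genes of the set past 2-fold, both of them rises, against 16.6% of listed genes that were at least 2-fold higher.

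The other 3 genes share pheophytinase as best hit only at weak E-values, and the table does not say whether they act on chlorophyll. All 3 were higher in autotetraploid leaves. The gene evm.TU.BraA01000237 (E-value 2.18e-23) had a mean of 2092 normalised reads in autotetraploids, against 987 in doubled haploids, and an adjusted p of 8.17e-31 in the authors' deposited table. Its log2 fold change of 1.08, with an implied standard error of 0.09, was the largest rise of the 9 genes, and it carries the code A01, where 358 of 1284 listed genes were higher. The gene evm.TU.BraA03005580 (E-value 1.79e-15) had means of 386 in autotetraploids and 200 in doubled haploids, a log2 fold change of 0.95 with an implied standard error of 0.13, and an adjusted p of 3.72e-13 in the authors' deposited table. The gene evm.TU.BraA10000018 (E-value 5.94e-23) had means of 1108 in autotetraploids and 830 in doubled haploids, a log2 fold change of 0.42 with an implied standard error of 0.08, and an adjusted p of 4.33e-06 in the authors' deposited table. Over these weak hits the summed mean was 3586 in autotetraploids and 2017 in doubled haploids.

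The total for pheophytinase depended on which genes were counted. Summed over all 5 genes with that hit, autotetraploid leaves had 6760 normalised reads, 93.5% of the 7230 in doubled haploids, a log2 ratio of -0.10. Over the 2 strong hits the log2 ratio was -0.72, and over the 3 weak hits it was 0.83.

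**Figure D3:**
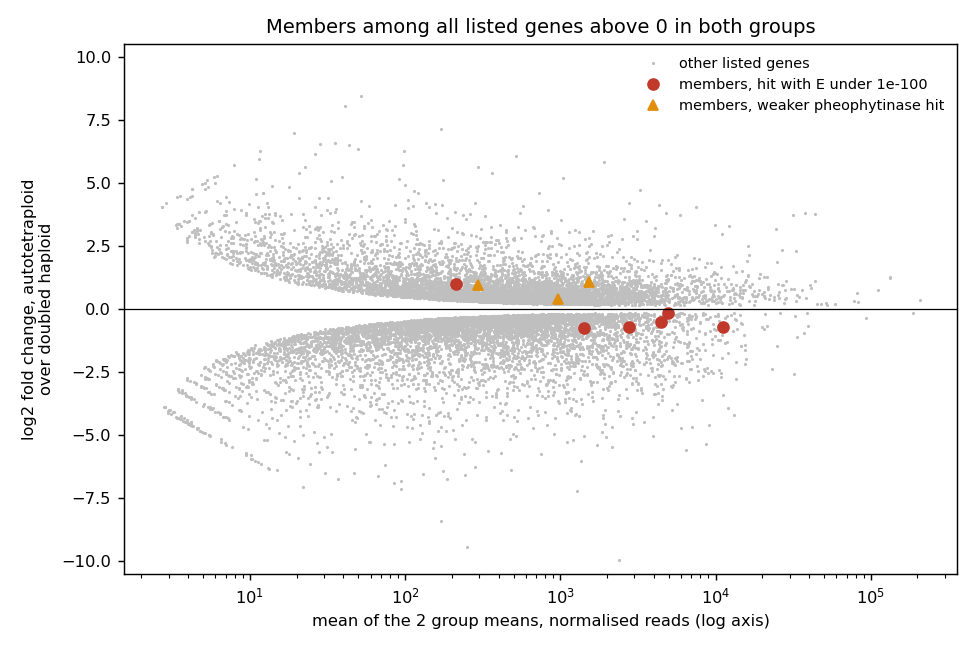
Log2 fold change (autotetraploid over doubled haploid) against the mean of both group means (log axis) for all listed genes above 0 in both groups (grey), the 6 genes with a strong hit (red circles) and the 3 weak PPH hits (orange triangles). The empty band around 0 widens at low means because only genes that passed the authors' test are listed; the 9 genes range from -0.74 to 1.08.

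For the 2 genes with the lowest means, the reads of single libraries could be partly worked back from the means. For the doubled haploid group the solution was unique, but which value belongs to which numbered replicate is not known. CLH1 (evm.TU.BraA06001198) had 122, 140 and 163 normalised reads in these libraries. The weak PPH hit evm.TU.BraA03005580 had 191, 194 and 215. The spread between doubled haploid libraries was therefore small against the distance to the autotetraploid means of 284 and 386.

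In the autotetraploid group the mean of CLH1 (evm.TU.BraA06001198) allowed 4 sets of reads. The most even set gave 256, 289 and 307 normalised reads, all above the doubled haploid libraries. The mean of evm.TU.BraA03005580 allowed 5 sets, of which the most even gave 361, 395 and 402. In each case this was the only set whose highest library was less than 1.77 times its lowest. That ratio was the 95th percentile among autotetraploid values from 50 to 100 that have a single solution, whose median was 1.28. The means alone do not tell these sets apart. In 2 of the other 3 sets of CLH1 and 2 of the other 4 of evm.TU.BraA03005580, 1 autotetraploid library would lie below all doubled haploid ones.

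**Figure D4:**
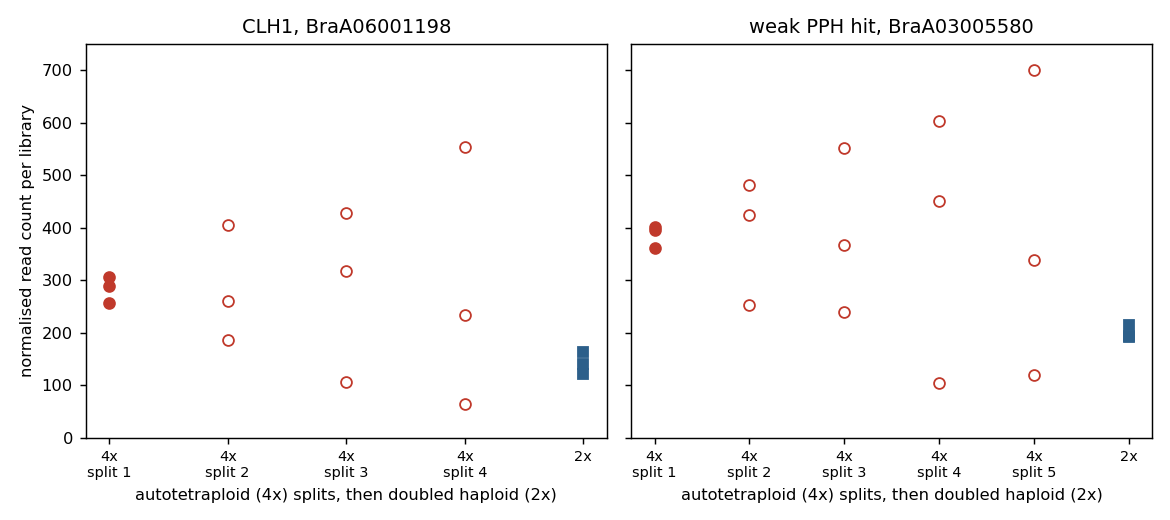
Normalised reads per library of CLH1 (left) and of the weak pheophytinase hit evm.TU.BraA03005580 (right), with each possible set of autotetraploid values (red circles, 4x, sorted from even to uneven) and the unique set of doubled haploid values (blue squares, 2x). Filled circles mark the only set whose highest library is less than 1.77 times its lowest; it lies wholly above the doubled haploid libraries.

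Other genes of the pathway were split as well. Of 6 listed genes at other steps, 4 were lower and 2 higher. Cytochrome P450 89A9, which in Arabidopsis modifies the colourless products made after RCCR, had a mean of 5082 in autotetraploids and 8840 in doubled haploids (evm.TU.BraA03003329), a log2 fold change of -0.80 and an adjusted p of 1.43e-35 in the authors' deposited table. TIC 55, an oxygenase of the same family as PAO that hydroxylates those products in Arabidopsis, was higher (evm.TU.BraA03002694), with means of 5262 in autotetraploids and 3672 in doubled haploids and an adjusted p of 1.09e-14 in the authors' deposited table. A further relative of PAO, protochlorophyllide-dependent translocon component 52 (evm.TU.BraA01001421), was also higher, at 4604 in autotetraploids and 3738 in doubled haploids, with an adjusted p of 1.7e-05 in the authors' deposited table.

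STAY-GREEN genes, whose products supply the substrate of pheophytinase, were lower in 3 of 4 cases. The gene with STAY-GREEN 2 as best hit (evm.TU.BraA03002933) had means of 5.11 in autotetraploids and 482 in doubled haploids, and 1 with STAY-GREEN 1 (evm.TU.BraA01001706) had means of 539 in autotetraploids and 2224 in doubled haploids. This STAY-GREEN 1 gene carries the code A01, and its log2 fold change relative to the median of that code was -1.51. The other genes with STAY-GREEN 1 as best hit went in both directions. One (evm.TU.BraA03005404) was lower, with means of 701 in autotetraploids and 996 in doubled haploids and a log2 fold change of -0.51. The other (evm.TU.BraA08001500) was higher, with means of 452 in autotetraploids and 247 in doubled haploids and a log2 fold change of 0.87. No listed gene had NOL, the partner of NYC1, 7-hydroxymethyl chlorophyll a reductase or methylesterase 16 as best hit, and these were not analysed here.

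In a list of transcription factors, most of them known from Arabidopsis to act on chlorophyll breakdown, 20 of 27 listed genes were lower, with a median log2 fold change of -1.00 against 0.19 for all listed genes above 0 in both groups. NAC019 (evm.TU.BraA06001894) had a mean of 2024 in autotetraploids, against 4519 in doubled haploids, with an adjusted p of 1.4e-63 in the authors' deposited table. NAC016, which in Arabidopsis promotes STAY-GREEN expression (evm.TU.BraA05001833), had means of 489 in autotetraploids and 1302 in doubled haploids, with an adjusted p of 3.5e-56 in the authors' deposited table. ORE1, listed as NAC92, a central regulator of leaf senescence (evm.TU.BraA04001164), had means of 33.9 in autotetraploids and 100.5 in doubled haploids, with an adjusted p of 3.76e-06 in the authors' deposited table.

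EIN3, a transcription factor of ethylene signalling that acts upstream of ORE1 in Arabidopsis (evm.TU.BraA01002816), had means of 850 in autotetraploids and 1622 in doubled haploids. Its log2 fold change was -0.93, and it carries the code A01, relative to whose listed genes it stood at -0.40. An ABI5 gene of the abscisic acid response (evm.TU.BraA05001987) had means of 7.23 in autotetraploids and 560 in doubled haploids. Of the 7 rises in this list, 6 were of genes with ABF3, ABF1, EIL1 or EIL3 as best Swiss-Prot hit, and EIL3 is known in Arabidopsis for the response to low sulfur rather than for chlorophyll. The ABF3 hit (evm.TU.BraA01000449) had a log2 fold change of 0.47 and the EIL1 hit (evm.TU.BraA03002674) one of 0.33. The remaining rise (Novel00265) has no Swiss-Prot hit and was placed by a second description, which names NAC072. Its log2 fold change was 0.72, while the 2 genes with NAC072 as best Swiss-Prot hit were lower, at -1.64 (evm.TU.BraA03005726) and -0.94 (evm.TU.BraA01001908). Genes with like hits were also among the falls. A gene with ABF1 as best hit and the code A01 (evm.TU.BraA01003678) stood at -0.60, and an ABI5-like protein 3 hit (evm.TU.BraA04002980) at -0.48. Weak hits lay on both sides, such as a NAC055 hit at -3.61 (evm.TU.BraA09001561, E-value 6.34e-12) and an ABF1 hit at 1.28 (evm.TU.BraA06002107, E-value 4.27e-09). Of the 27, 14 were at least 2-fold lower, against 0 of the 9 enzyme genes and 23.0% of listed genes.

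Chlorophyll synthesis and light-harvesting genes stood on the other side. Of 34 listed synthesis genes 31 were higher, with a median log2 fold change of 0.61, and of 27 light-harvesting genes 23 were higher, with a median of 0.51. Magnesium chelatase subunit ChlI-2 (evm.TU.BraA06000196) had means of 4185 in autotetraploids and 2000.2 in doubled haploids. Among the 3 synthesis genes that were lower, all matched glutamyl-tRNA reductase, which catalyses the first committed step, and 1 of them (evm.TU.BraA09000459) had means of 509 in autotetraploids and 3761 in doubled haploids. The others carry the code A01, relative to whose median they stood at -0.14 (evm.TU.BraA01002257) and 0.21 (evm.TU.BraA01002111). The light-harvesting gene for CP29.3 (evm.TU.BraA05003802) had means of 14637 in autotetraploids and 4145 in doubled haploids. A second light-harvesting gene, evm.TU.BraA08002753, had means of 14849 in autotetraploids and 5665 in doubled haploids.

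**Figure D5:**
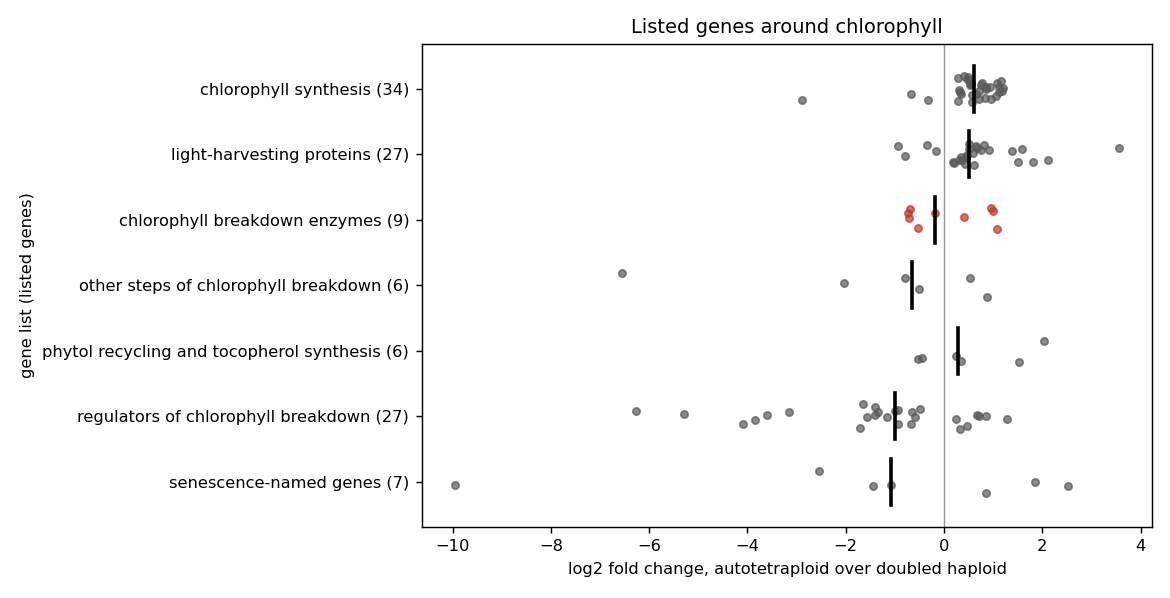
Log2 fold change (autotetraploid over doubled haploid) of each listed gene in 7 gene lists around chlorophyll, with black bars at the list medians and small vertical scatter for legibility. Breakdown enzyme genes (red, 9) lie on both sides of 0 with a median of -0.18, synthesis and light-harvesting genes mostly above 0, and regulators mostly below, with a median of -1.00.

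Markers of other tissues were listed too, and being listed means having been called changed. Among all listed genes 50.0% were lower. Flower and pollen genes, mostly MADS-box genes, were lower in 20 of 25 cases, vascular and lignin genes in 20 of 41 and root genes in 2 of 4, and 0 of 1 seed storage gene was lower. Genes with senescence in their description were lower in 4 of 7 cases, each of the 4 at least 2-fold, and the median log2 fold change was -1.07. A gene matching SAG12, a protease of senescing leaves (evm.TU.BraA06000198), had means of 4.86 in autotetraploids and 4804 in doubled haploids, with an adjusted p listed as 0 in the authors' deposited table. A gene matching the related protease SAG39 (evm.TU.BraA01003629) had means of 548 in autotetraploids and 3212 in doubled haploids, with an adjusted p of 1.05e-226 in the authors' deposited table. This SAG39 gene carries the code A01, and its log2 fold change relative to the median of that code was -2.02. The 3 rises were all of other genes with SAG12 as best hit, whose highest autotetraploid mean was 81.4. The part of such differences in the results for the breakdown enzymes was not tested.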

How the data were processed

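Leaf RNA of 3 autotetraploid and 3 doubled haploid libraries was analysed. The submitters' processing notes name HTSeq 0.6.1, DESeq 1.18.0, TopHat2 2.0.12 and Bowtie2 2.2.3. Genome build: not given in the sources used here. While labelled FPKM, the deposited signal columns hold 1 mean normalised read count per group, per the file headers and the values. The deposited log2 fold changes equal the log2 ratio of these means within 5e-05. Each p-value and its adjusted form were deposited by the authors from their own test. The number of genes tested came from the ratio of adjusted p to p.

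Members were found by their protein hit, and all 9 are named. The members and lists were chosen with earlier results of these data known. Other lists were patterns over protein descriptions. From each the 2 genes with the smallest adjusted p were named, and any gene could be named in the lists of breakdown steps and regulators. Lists of other tissues are given as counts. Protochlorophyllide-dependent translocon component 52 and the synthesis genes that were lower were named after their values were seen. Reads per library were sought for means up to 400, by testing all sets of whole reads, and the procedure was tested on simulated data. The limma fit planned for recovered reads was not run, because no member had a unique set of reads in both groups. Standard errors were |log2 fold change| divided by the normal deviate of p. They and the counting intervals, which cover counting error only, are approximate. Of the 9 identifiers 0 were found in the RefSeq gene table, so no coordinates or sequences are given. Values were computed in Python 3.11.15 with SciPy 1.17.1, NumPy 2.4.6 and pandas 2.3.3, and plotted with matplotlib 3.10.9. The labels do not say whether replicates came from separate plants, and p-values then measure only the spread between these libraries.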

Additional observations from a re-analysis of the deposited data

How the results depend on the processing

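The count of 5 lower genes among 9 stayed at 5 of 9 with scaling to the total of the listed genes. It also stayed there with centring on the median of listed genes with a mean of at least 500. Other settings were chosen after seeing the data. Subtracting the chromosome code's median at a mean of at least 1000 gave 5 of 9, and the median of all listed genes of the code 4 of 9. Hits with an E-value under 1e-100 gave 5 of 6. Among planned settings that counted fewer genes, an adjusted p under 0.001 gave 4 of 8 and 1 value per protein hit 4 of 5. The count was 0 of the 2 genes changed at least 2-fold and 3 of 6 without A01 genes. The share of lower genes thus moved with the genes counted. Under the planned scalings, the pseudocount of 1 and the filter on a mean of at least 100, no gene of the 9 changed direction. Centring shifted every log2 fold change by 0.25 downwards, so that NYC1 (evm.TU.BraA08000317) stood at -0.43 and evm.TU.BraA10000018 at 0.16. The median used for centring also covers only genes that passed the authors' test. RCCR (evm.TU.BraA01000190) turned to 0.0087 after subtracting the median of its code. No paired analysis was possible because the deposited columns are group means and the reads worked back from them cannot be assigned to the numbered replicates. Leaving out a replicate was not possible for the same reason. A table of called genes cannot show family members that did not pass.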

Other observations

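Genes with a best hit from phytol recycling or tocopherol synthesis were also split, with 4 of 6 listed genes higher in autotetraploid leaves. Tocopherol cyclase (evm.TU.BraA03006148), an enzyme of vitamin E synthesis, had means of 586 in autotetraploids and 204 in doubled haploids, with an adjusted p of 5.09e-39 in the authors' deposited table. Phytol kinase 1 (evm.TU.BraA03000172), which in Arabidopsis feeds phytol back into tocopherol, had means of 1125 in autotetraploids and 1616 in doubled haploids, with an adjusted p of 9.1e-11 in the authors' deposited table.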
